A study of Mus musculus with 2 samples.

Results

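The genes described here encode receptor tyrosine kinases of mesenchymal and epithelial cells and 2 ligands of 1 of these receptor families. They are Pdgfra and Pdgfrb, the receptors of platelet-derived growth factor (PDGF), its ligand genes Pdgfc and Pdgfd, and Kit, the stem cell factor receptor, which belongs to the same structural class as the PDGF receptors. The others are the fibroblast growth factor (FGF) receptors Fgfr1 and Fgfr2, the epidermal growth factor receptor Egfr, the hepatocyte growth factor receptor Met, and the collagen receptor Ddr2. The members were the 10 named genes, and their regions were all rows of the authors' table of differentially methylated regions that overlap a RefSeq gene span (GRCm38.p6, the assembly of mm10) or lie within 10 kb of it on either side. This gave 32 of the 28141 listed regions. Of these, 29 lay inside a gene span, none lay in the next 2 kb, and 3 lay between 2 and 10 kb outside.

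The assay was whole-genome bisulfite sequencing of 2 libraries, 1 per group, with no replicate. Both came from adipose progenitors of C57BL/6 mice that were sorted with magnetic beads, grown and made to differentiate into adipocytes, and both received the synthetic glucocorticoid dexamethasone at 1 µM. They differ in the sorting marker, which was CD137, a tumour necrosis factor receptor family protein used to mark beige adipocyte precursors, or PDGFRα (CD140), the product of Pdgfra. The source was subcutaneous or visceral adipose tissue. The labels used here do not tie a depot to a library or give the number and age of the animals. A methylation level is the fraction of cytosines in a region read as methylated, and a difference is the PDGFRα+ level minus the CD137+ level. Read depth is unknown, so levels carry no interval, and without replicates no difference has a p-value or a replicate check.

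Receptor tyrosine kinases bind a growth factor outside the cell, pair up, and phosphorylate each other on tyrosines, which dock adaptor proteins and start the Ras-MAP kinase and PI3-kinase cascades. In fat, PDGFRα marks the stromal cells that hold most adipocyte precursors, PDGFRβ marks mural cells and part of the precursors, and FGF signalling through FGFR1 is known to favour adipogenic differentiation. Methylation of cytosines in CG pairs is usually low at active promoters and enhancers and high over the rest of the genome.

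Most regions at these genes were less methylated in the PDGFRα+ library. Of the 32 regions, 27 (84.4%, Wilson 95% interval 68.2 to 93.1, counting error only) were lower in PDGFRα+ and 5 were higher. Over all listed regions 77.7% were lower, a share inside that interval, so these few regions do not separate the genes from the table as a whole. The median difference was -0.551 at the 10 genes and -0.488 over all listed regions. All 10 genes had a region within 10 kb and 9 had one within 2 kb, against 38.4% and 29.5% of 21887 protein-coding genes. Long genes hold more regions, and among the 5607 protein-coding genes between 39941 and 365922 bases long, the range of the 10 genes, 65.4% had a region within 10 kb and 60.3% within 2 kb. The mean number of regions was 3.20 at the 10 genes and 1.92 at genes of that length. The 10 genes were chosen with earlier results of these data known, so these shares and means are descriptions and not tests. In 6 genes (Pdgfra, Pdgfrb, Pdgfd, Fgfr2, Egfr and Ddr2) every region was lower, against 58.7% of all protein-coding genes with a region. Pdgfc, Kit, Fgfr1 and Met held both directions. The mean difference was below 0 in 9 of the 10 genes, with Kit the exception, against 74.5% of protein-coding genes with a region.

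**Figure D1:**
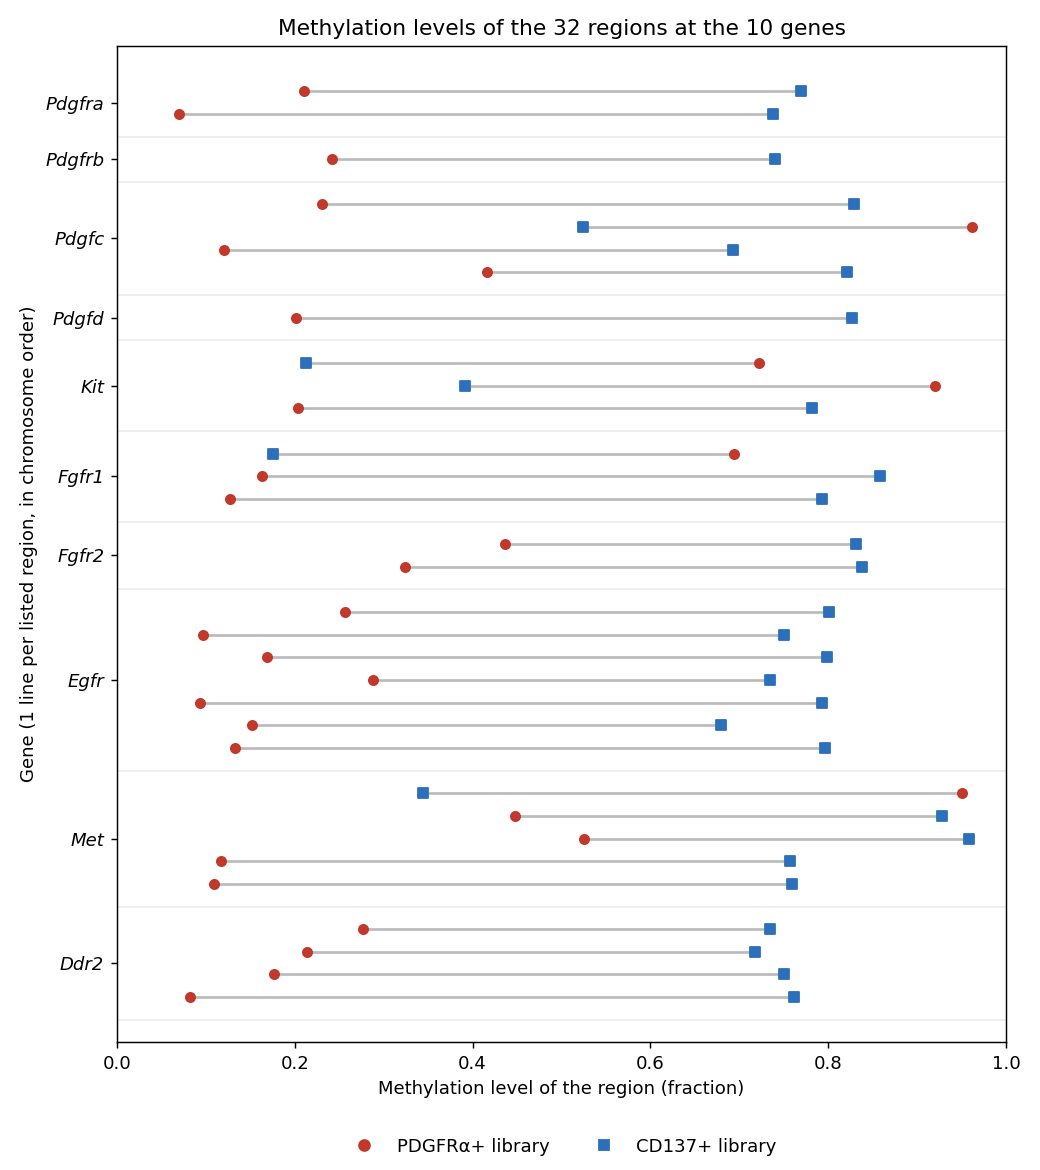
Methylation level (fraction, x axis) of each of the 32 regions, 1 line per region, grouped by gene on the y axis and in chromosome order within a gene; red circles are the PDGFRα+ library and blue squares the CD137+ library. In 27 regions the red circle lies to the left of the blue square, and the 5 exceptions are 2 regions of Kit and 1 each of Pdgfc, Fgfr1 and Met.

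The lower regions had levels from 0.0699 to 0.526 in PDGFRα+ and from 0.680 to 0.959 in CD137+, so the levels of the libraries did not overlap among them; each region is listed because it differs. Their medians were 0.201 and 0.781, against 0.261 and 0.820 over all 21870 lower regions. Differences of at least 0.6 made up 11 of these 27 regions (40.7%), against 24.7% of all lower regions. The 5 higher regions had levels of 0.694 to 0.961 in PDGFRα+ and 0.175 to 0.524 in CD137+.

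The lower regions at these genes were long and poor in counted cytosines. The cytosines counted appear to be those of CG pairs on both strands, so the number of CG pairs is smaller. These 27 lower regions had a median length of 328 bases and 3.32 cytosines per 100 bases, against 222 bases and 4.51 cytosines over all lower regions. The 5 higher regions had a median of 211 bases and 6.17 cytosines per 100 bases, against 193 bases and 5.06 over all higher regions. At least 500 bases were covered by 7 of the 32 regions (21.9%), against 9.60% of all listed regions. All 7 were lower in PDGFRα+, as were 83.1% of the listed regions of that length. They lay in Egfr (3 regions) and in Pdgfd, Fgfr1, Met and Ddr2 (1 each). The thresholds of 0.6 and of 500 bases were chosen after the values were seen.

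Of the PDGF receptors, Pdgfra encodes PDGFRα, the antigen used for the sort, which binds several PDGF dimers, PDGF-CC among them. Its span is chr5:75151322-75198206 (gene 18595, plus strand), 46.9 kb. The region inside the gene, chr5:75185946-75186093, starts 33695 bases past the start of transcription, with levels of 0.210 (PDGFRα+) and 0.769 (CD137+) over 8 cytosines. The other, chr5:75208020-75208195, lay 9814 bases beyond the upper end, just inside the 10 kb limit. It had the lowest PDGFRα+ level of the 32, 0.0699, against 0.738 in CD137+, over only 5 cytosines. The CD137+ library was thus the more methylated at both. Widening the window to 50 kb brought in 2 more regions, at chr5:75108647-75108969 (0.404 in PDGFRα+ and 0.840 in CD137+) and chr5:75247289-75247713 (0.255 and 0.765), so all 4 regions around the gene were lower in PDGFRα+.

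No listed region overlapped the promoter of Pdgfra, so its promoter level in either library is not known from this table. The 250 bases before its start of transcription (RefSeq, GRCm38.p6, chr5:75152001-75152250, plus strand) are shown beside those of its neighbour Kit (chr5:75574737-75574986, plus strand), because both promoters lie outside the listed regions while the mean differences of the genes have opposite signs. Capitals mark CG pairs, the kind of site counted in the listed regions. None of the pairs shown for these genes lies in a listed region.
Pdgfra: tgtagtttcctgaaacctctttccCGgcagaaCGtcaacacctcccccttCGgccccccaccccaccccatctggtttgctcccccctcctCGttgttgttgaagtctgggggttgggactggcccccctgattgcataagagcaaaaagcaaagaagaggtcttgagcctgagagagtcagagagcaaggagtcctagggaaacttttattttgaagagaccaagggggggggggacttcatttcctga
Kit: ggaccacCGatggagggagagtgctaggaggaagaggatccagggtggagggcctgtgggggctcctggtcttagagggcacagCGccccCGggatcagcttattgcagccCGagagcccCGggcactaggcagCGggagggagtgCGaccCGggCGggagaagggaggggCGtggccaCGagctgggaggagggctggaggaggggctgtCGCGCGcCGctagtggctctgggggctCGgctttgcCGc
The Pdgfra stretch holds 4 CG pairs and the Kit stretch 17. Promoter windows of 300 bases (250 before to 50 after the start) were found for 8 of the 10 genes, all but Pdgfrb and Fgfr1, and no listed region overlapped any of them. Those windows held a median of 8 CG pairs, against 7 over 32817 promoter windows. Measured from the starts of transcription that these windows give, the nearest region lay 2506 bases away, in Pdgfd. The next lay 3797 bases away, in Kit. Other gene models can start elsewhere, as described for Ddr2 below. The word GGAATG, bound by TEAD factors, was searched on both strands and found in the window of Pdgfc, against 14.7% of all windows. The AP-1 word TGANTCA was found in the window of Met, against 7.81%. The glucocorticoid receptor element (AGAACA and TGTTCT with 3 bases between them) was found in none of the 8 windows, against 0.00914%. A match of letters is a description and not a binding site.

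Pdgfrb encodes PDGFRβ, the receptor of PDGF-BB and PDGF-DD, a defining marker of mural cells. Its span is chr18:61045127-61085067 (gene 18596), 39.9 kb, the shortest of the 10. The gene held no region. Its only region within 10 kb, chr18:61092325-61092603, lay 7258 bases beyond the upper end, at 0.242 in PDGFRα+ and 0.741 in CD137+ over 14 cytosines. The region nearest outside the limit of any of the 10 genes, chr18:61096224-61096320, lay 11157 bases away with 0.414 and 0.867. Within 50 kb, 2 of 4 regions were lower, and the mean difference moved from -0.499 to -0.0158.

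The PDGF ligand genes were also lower for the most part. Pdgfc encodes PDGF-C, a ligand secreted in latent form that acts through PDGFRα (chr3:81036416-81214040, gene 54635, plus strand). Of its 4 regions, all in the gene, 3 were lower in PDGFRα+. These were chr3:81107017-81107098 (0.231 against 0.828 in CD137+), chr3:81196601-81196802 (0.120 against 0.693) and chr3:81200651-81200990 (0.416 against 0.822). The higher one, chr3:81113085-81113217, lay 5986 bases past the first, with 0.961 in PDGFRα+ and 0.524 in CD137+. Adjacent parts of this gene thus differed in opposite directions. The first region rests on 4 cytosines, and the mean difference of the gene, -0.285, was -0.181 with at least 5 cytosines required, -0.406 with at least 10 or with only the larger area statistics, and -0.585 with absolute differences of at least 0.5.

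Pdgfd encodes PDGF-D, a ligand of PDGFRβ (chr9:6168363-6534284, gene 71785, plus strand). At 366 kb it is the longest of the 10 genes and held 1 region, or 0.259 regions per 100 kb of gene and flanks, the fewest of the 10. That region, chr9:6170992-6171635, begins 2506 bases past the start of transcription. It spans 644 bases and 21 cytosines, and its levels were 0.201 (PDGFRα+) and 0.826 (CD137+). No other region was listed within 50 kb of the gene.

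Kit differed from the other 9 genes in the sign of its mean difference, 0.153. KIT is the receptor of stem cell factor and is best known in mast cells, melanocytes and blood stem cells. Its span is chr5:75574987-75656722 (gene 16590, plus strand), 377 kb above Pdgfra. The region nearest the start of transcription, chr5:75578788-75579157, had 0.722 in PDGFRα+ and 0.213 in CD137+ over 25 cytosines. Next, 2714 bases on, chr5:75581872-75582150 had 0.920 and 0.392. The last, chr5:75596239-75596566, 21248 bases from the start, went the other way, with 0.204 in PDGFRα+ and 0.781 in CD137+ over 18 cytosines. The regions nearest the start of the gene were thus more methylated in PDGFRα+ and the one further in less so. Of the 792 protein-coding genes with 3 regions, 23.1% had at least 2 higher. The mean difference of Kit was 0.0229 with 50 kb on either side, where 2 of 4 regions were lower.

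KIT is also an antigen of blood-derived cells, and most regions at the markers of such cells were higher in PDGFRα+. Of 8 immune markers 7 had a region, against 38.4% of all protein-coding genes and 65.4% of those in the length range of the 10 genes. Of their 25 regions 21 were higher, with levels from 0.133 to 0.957 in PDGFRα+ and from 0.161 to 0.966 in CD137+. By gene, 4 were mostly higher, 1 mostly lower and 2 even. All 8 regions of Ptprc, the CD45 gene, all 3 of Laptm5 and 7 of 8 of Ikzf1 were higher, while Cd3e was lower in its only region (0.324 against 0.966 in CD137+) and Spi1 and Csf1r were even. Of 5 endothelial markers all had a region, and 9 of 14 regions were higher, with Pecam1, Cdh5 and Kdr mostly higher. Tek was lower in 3 of 3 regions and Emcn in its only one. All 6 regions of the 5 mural markers, Pdgfrb included, were lower, as were 9 of 10 regions of the progenitor markers Pdgfra, Dpp4 and Pi16, while Ly6a and Cd34 had none. At the mesothelial markers 9 of 11 regions were lower. The 77.7% of all listed regions that were lower lies inside the Wilson intervals of the mural (61.0 to 100), progenitor (59.6 to 98.2) and mesothelial (52.3 to 94.9) markers. These lists are thus not separated from the table as a whole. It lies above the intervals of the immune (6.4 to 34.7) and endothelial (16.3 to 61.2) markers. All these intervals treat regions as independent, although several belong to the same gene, and the marker lists were written with earlier results of these data known. The part of other cell types in the results for Kit was not tested, and methylation levels in mixed cells cannot be assigned to one type.

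**Figure D2:**
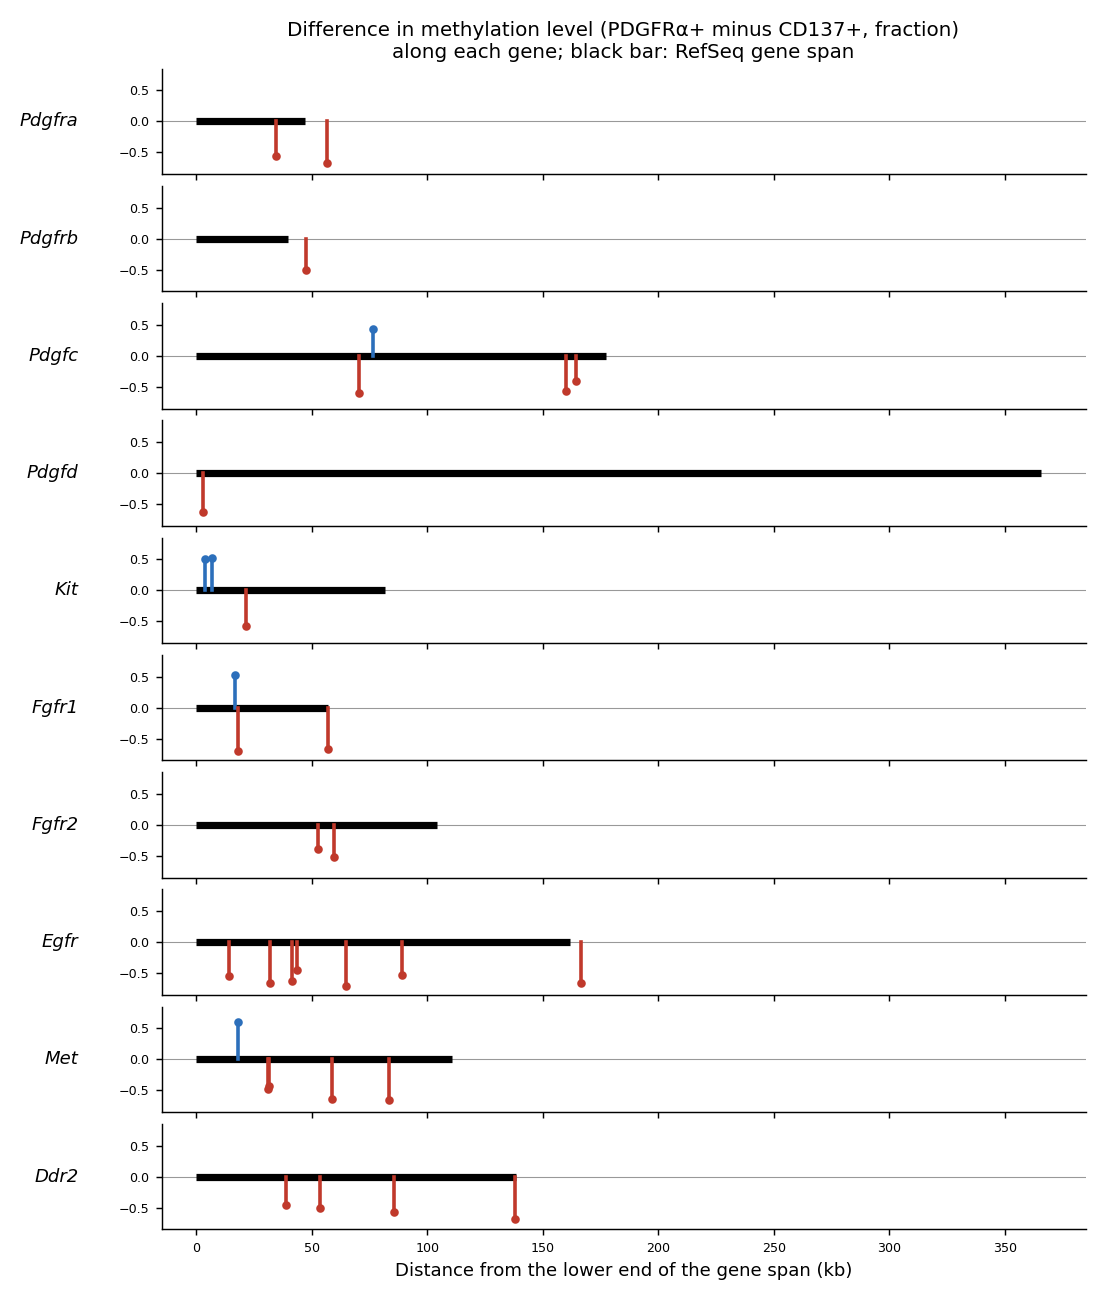
Difference in methylation level (PDGFRα+ minus CD137+, fraction, y axis) of each region along its gene, by distance in kb from the lower end of the gene span (x axis), 1 panel per gene; black bars are gene spans, red stems are lower and blue stems higher in PDGFRα+. The Egfr panel holds 7 red stems, and Kit has 2 blue stems near its lower end and 1 red stem further in.

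Pdgfra and Kit lie in a row with Kdr, the gene of a vascular endothelial growth factor receptor, on mouse chromosome 5. From 50 kb below Pdgfra to 50 kb above Kdr, a stretch of 928 kb, 19 regions were listed, 11 lower and 8 higher in PDGFRα+. All 6 regions below Kit, from chr5:75108647 to chr5:75402849, were lower, and the first higher region was that at the start of Kit. Over all listed regions 77.7% were lower, and whether direction changes at Kit was not tested. Between Kit and Kdr both directions occurred. The widest difference of the stretch belonged to chr5:75877807-75877900, with 0.962 in PDGFRα+ and 0.206 in CD137+ over 4 cytosines, 54927 bases below Kdr. The 2 regions inside Kdr were higher (0.926 against 0.509 and 0.946 against 0.615), and a long one 8301 bases above it, chr5:75987373-75988264, was lower (0.148 against 0.799).

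**Figure D3:**
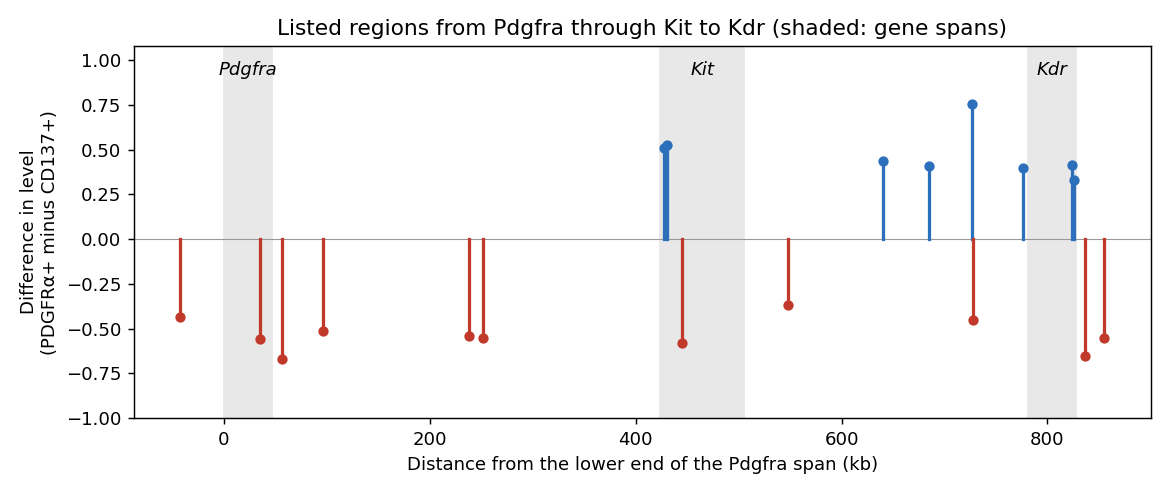
Difference in methylation level (PDGFRα+ minus CD137+, fraction, y axis) of the 19 listed regions around Pdgfra, Kit and Kdr, by distance in kb from the lower end of Pdgfra (x axis); shaded bands are the gene spans, red is lower and blue higher in PDGFRα+. All stems below Kit are red, and the 8 blue stems lie in Kit or above it.

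Fgfr1 and Fgfr2 both had more lower than higher regions. Fgfr1 encodes the FGF receptor best known in mesenchymal cells (chr8:25518759-25575718, gene 14182). It held 3 regions. The pair in its lower part differed in opposite directions 230 bases apart. The short one, chr8:25535511-25535672, had 0.694 in PDGFRα+ and 0.175 in CD137+ over 10 cytosines. The long one, chr8:25535903-25537512, had 0.163 and 0.858 over 33 cytosines and 1610 bases, the longest of the 32 regions. Both overlap also the span of Gm31288, a long non-coding RNA gene. Of 1244 pairs of neighbouring listed regions under 500 bases apart, 20 (1.61%) had opposite directions; this pair was singled out after its values were seen. The third region, chr8:25575528-25575848, crosses the upper end of the gene, with 0.127 and 0.792. Requiring 10 cytosines removed it, and the mean difference moved from -0.280 to -0.0881.

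Fgfr2 encodes the receptor whose splice forms bind FGF7 and FGF10 or FGF2 (chr7:130162451-130266808, gene 14183, minus strand). Its 2 regions, chr7:130215256-130215352 and chr7:130222078-130222313, had levels of 0.436 and 0.324 in PDGFRα+ and 0.831 and 0.838 in CD137+. Each rests on 5 cytosines, and neither remained when 10 were required. A group of regions lay further out, 22323 to 36606 bases above the gene, inside the span of the non-coding gene Gm33555. Of these, chr7:130289131-130289812 (0.120 against 0.762) and chr7:130303414-130303782 (0.214 against 0.841) were lower, and chr7:130292363-130292507 between them was higher (0.942 against 0.469).

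Egfr held the most regions of the 10 genes, and all 7 were lower in PDGFRα+. It encodes the receptor of EGF, TGF-α and related ligands (chr11:16752203-16913907, gene 13649, plus strand). Along the gene the PDGFRα+ levels were 0.257, 0.0969, 0.169, 0.288, 0.0933 and 0.152, and that of the region 4753 bases past the upper end was 0.133. The CD137+ levels of the same 7 regions were 0.801, 0.750, 0.798, 0.735, 0.792, 0.680 and 0.796. The libraries thus did not overlap, with 0.0933 to 0.288 in PDGFRα+ and 0.680 to 0.801 in CD137+, but each region is listed because it differs. The widest difference of all 32 regions, -0.699, belonged to chr11:16816244-16817547, which spans 1304 bases and 39 cytosines and overlaps the antisense gene Egfros. Every region was lower in 21.7% of the 502 protein-coding genes that have 7 regions or more. Without Egfr, 80.0% of the 25 remaining regions of the other genes were lower.

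Met encodes the receptor of hepatocyte growth factor (chr6:17463349-17573980, gene 17295, plus strand). It held 5 regions, 4 lower and 1 higher, and the higher one was nearest the start of transcription, 17459 bases away. That region, chr6:17481416-17481626, had 0.950 in PDGFRα+ and 0.344 in CD137+ over 14 cytosines, the widest difference among the 5 higher regions. A pair 150 bases apart, chr6:17494403-17494738 and chr6:17494889-17494997, had high CD137+ levels of 0.928 and 0.959 and intermediate PDGFRα+ levels of 0.447 and 0.526. The regions further in, chr6:17522159-17522516 and chr6:17546358-17547343, had 0.117 and 0.110 in PDGFRα+ and 0.757 and 0.759 in CD137+. The first pair was thus intermediate in PDGFRα+, whereas the last was mostly unmethylated there.

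Ddr2 encodes a receptor of fibrillar collagen found on fibroblasts (chr1:169972307-170110836, gene 18214, minus strand). All 4 of its regions were lower. From the lower to the upper end of the gene, the PDGFRα+ levels were 0.277, 0.214, 0.176 and 0.0820 and the CD137+ levels 0.735, 0.718, 0.750 and 0.762. The region of the lowest PDGFRα+ level, chr1:170109801-170110821, spans 1021 bases and lies at the upper end of the span, 20857 bases upstream of the start of transcription that the promoter table gives. The span there belongs to a longer gene model than the one that gives this start. As the gene is on the minus strand, its longer model begins at the upper end, 170110836. The region thus lies at the start of the longer model. Among the 4 members with at least 4 regions, Egfr and Ddr2 had every region lower, against 31.6% of protein-coding genes with that many regions.

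The rest of the pathway was described from 8 lists with 134 genes, of which 88 (65.7%) had a region within 10 kb. That share was 38.4% over all protein-coding genes and 65.4% over those in the length range of the 10 genes. Of the 88 genes, 60 were mostly lower in PDGFRα+, 23 mostly higher and 5 even. Of their 251 distinct regions 185 (73.7%, Wilson interval 67.9 to 78.8) were lower, against 77.7% of all listed regions. Their median difference was -0.482, close to that of all listed regions. The share of lower regions ran from 58.5% in feedback inhibitors to 96.3% in FGF ligands among the 6 lists with more than 5 regions, and no test of these differences was made.

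Among the partners of the PDGF receptors and Kit, Pdgfa, a ligand of PDGFRα, had 1 region with 0.125 in PDGFRα+ and 0.857 in CD137+. Pdgfb had 1 region, 9975 bases outside the gene (0.269 and 0.773), and Pdgfrl, a receptor-like gene, had 2 lower regions. With Pdgfc and Pdgfd, every PDGF ligand gene thus had a mean difference below 0. Kitl, which encodes stem cell factor, the ligand of KIT, went the other way in 3 of 3 regions. Their levels were 0.914, 0.823 and 0.947 in PDGFRα+ and 0.443, 0.365 and 0.559 in CD137+. The mean difference was thus above 0 for both receptor and ligand of that pair. For Kit, however, it averages 2 higher regions and 1 lower, and it was 0.153, or 0.0229 with 50 kb on either side. Of the other receptors of the class, Flt3 had 2 lower and 1 higher region and Csf1r 1 of each, while the ligand gene Csf1 had 1 lower region (0.150 and 0.826).

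FGF ligand genes were lower almost throughout. Of 22 genes 10 (45.5%) had a region, against 38.4% of all protein-coding genes, and all 10 were mostly lower. Of 27 regions 26 (96.3%, Wilson interval 81.7 to 99.3) were lower, against 77.7% of all listed regions, with the exception in Fgf12. The interval treats regions as independent, although several belong to the same gene and some lie close together. Fgf2, a broad mitogen of mesenchymal cells, had 8 of 8 regions lower (means of 0.182 in PDGFRα+ and 0.725 in CD137+), and Fgf1, known for a role in the growth of fat tissue, had 6 of 6 (0.341 and 0.860). Fgf7 was lower in 3 of 3 regions, Fgf9 in 2 of 2, and Fgf6, Fgf20, Fgf21 and Fgf23 in their only region, each with a difference of -0.497 to -0.533. Fgf18 stood apart, with a cytosine-dense region of 62 cytosines in 174 bases that was near 0 in PDGFRα+ (0.0046) and 0.181 in CD137+. Of the receptors and coreceptors Fgfr3, Fgfr4, Fgfrl1, Klb and Kl, Kl alone had a region (0.343 and 0.956).

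Promoters of pathway genes were reached in 6 of the 106 genes with a window, 5 lower and 1 higher. Over all listed regions 77.7% were lower. The share over all promoter windows was not counted, so 6 of 106 cannot be called many or few. The higher one was that of Tie1 (0.816 in PDGFRα+ and 0.419 in CD137+), and those of Tek and Fgf23 were among the lower ones. The promoters of Fgf7, a ligand of the Fgfr2 product, Fgf21, a metabolic hormone that acts through FGFR1, and Pik3r1, the regulatory subunit of PI3-kinase that docks on PDGF receptors, are shown, because here sequence inside a listed region can be read. Each is the part of the region that lies before the start of transcription and inside the window, on the strand of the gene, from RefSeq (GRCm38.p6), with CG pairs in capitals.
Fgf7: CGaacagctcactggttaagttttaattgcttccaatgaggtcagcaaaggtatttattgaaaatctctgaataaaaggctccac
Fgf21: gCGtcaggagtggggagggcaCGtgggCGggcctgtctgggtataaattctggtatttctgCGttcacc
Pik3r1: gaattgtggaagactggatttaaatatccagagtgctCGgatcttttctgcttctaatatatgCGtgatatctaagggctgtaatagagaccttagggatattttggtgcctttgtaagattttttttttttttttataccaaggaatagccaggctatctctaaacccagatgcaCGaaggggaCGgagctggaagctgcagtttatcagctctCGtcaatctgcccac
The Fgf7 stretch, chr2:126034573-126034657 on the plus strand, holds 1 CG pair. Its region reaches past the start of transcription to 126034687, and its levels were 0.167 (PDGFRα+) and 0.593 (CD137+). The Fgf21 stretch, chr7:45615491-45615559 on the minus strand, holds 4, and its region had 0.280 and 0.813. The Pik3r1 stretch, chr13:101692651-101692880 on the minus strand, holds 5, and its region had 0.181 and 0.671. The Pik3r1 span reaches further upstream, past another of its regions at chr13:101765253-101765326. The start used here thus lies inside the span, and the stretch is not the promoter of the longest gene model. Over all 9 regions of Pik3r1 5 were lower and 4 higher.

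In the EGF family 11 of 14 genes (78.6%) had a region, against 65.4% of genes in the length range of the 10 genes. Of the 11, 7 were mostly lower and 4 mostly higher, and 16 of 24 regions (66.7%) were lower, against 77.7% of all listed regions. Of the paralogues of Egfr, Erbb4 was lower in 2 of 2 regions and Erbb3 higher in its only one (0.817 in PDGFRα+ and 0.294 in CD137+). Hbegf, an EGF receptor ligand gene, was lower in 2 of 2 regions, Epgn in 2 of 2, Btc in 1 of 1 and Egf in 2 of 3, while Tgfa was higher in its only region (0.866 and 0.423). Of the neuregulin genes, whose products bind the ERBB paralogues, Nrg1 was lower in 5 of 6 regions, Nrg3 in 1 of 1, and Nrg2 was higher in 3 of 4. Nrg4, a factor secreted by brown fat, was higher in its only region (0.971 and 0.316). Hgf, the ligand of MET, and Ddr1, the paralogue of Ddr2, had no region. Mst1r, the paralogue of Met, had 4 lower regions of 4 (means of 0.137 in PDGFRα+ and 0.741 in CD137+).

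**Figure D4:**
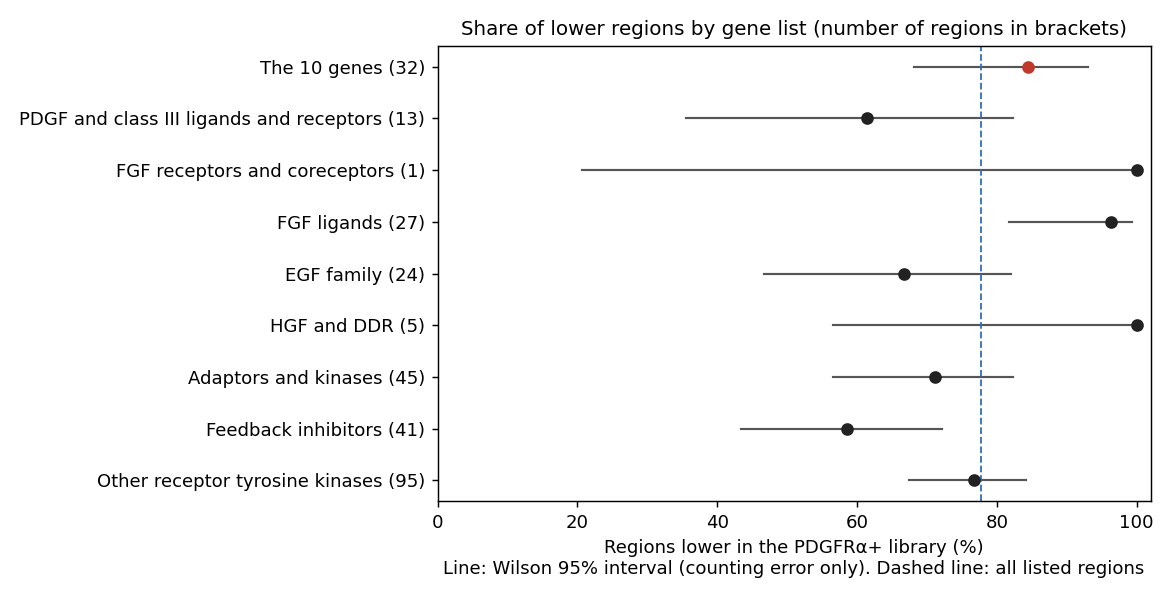
Share of regions that were lower in the PDGFRα+ library (percent, x axis) for the 10 genes (red) and for each of 8 lists of other pathway genes (black), with the number of regions in brackets; lines are Wilson 95% intervals for counting error only, and the dashed line is the 77.7% of all listed regions. FGF ligands stand at 96.3% and feedback inhibitors at 58.5%.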

How the data were processed

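Whole-genome bisulfite sequencing libraries of 1 CD137+ and 1 PDGFRα+ sample were compared by the authors, who deposited 1 table of differentially methylated regions. Per the file headers, it gives for each region the methylation level in each library as a fraction, their difference and an area statistic (scores in the deposited table), the length and the number of cytosines. Per the submitters' processing notes the build is mm10. Aligner, callers and thresholds, not given in the sources used here, could not be checked, and depth is unknown. Every row is a region that the authors called, and shares describe called regions only.

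Starts are printed 1-based, as the deposited start plus 1. In all 83 regions that lie wholly inside a RefSeq promoter window, the first and last base so counted belonged to a CG pair. The number of cytosines never exceeded the CG bases of both strands and was 94.7% of them in the median. The counted cytosines thus appear to be those of CG pairs on both strands, and other cytosines were not counted. Spans came from the RefSeq table of GRCm38.p6, which has no exons, so exons and introns were not separated. A region counts for every gene whose span plus 10 kb it overlaps. Strand and promoters came from the RefSeq promoter table. No group test was made. All members are named in the text. Of the other lists, the genes with the most regions and the paralogues and ligands of members are named. Further genes were chosen after their values were seen. Members and lists were chosen with earlier results of these data known. The overlap search was tested on simulated data. Python 3.11.15, numpy 2.4.6, pandas 2.3.3, statsmodels 0.14.6 and matplotlib 3.10.9 were used.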

Additional observations from a re-analysis of the deposited data

How the results depend on the processing

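The number of regions at the 10 genes was 32, and it was 20 with at least 10 cytosines, 20 with only area statistics above the median of all regions, and 50 with 50 kb on either side. Over the alternatives run (absolute differences of at least 0.3 or 0.5, at least 5 or 10 cytosines, larger statistics, other flanks, merged neighbours, flank regions inside other genes left out, other weights, and without Egfr, the last added after the data were seen), the share of lower regions stayed between 78.0% and 84.4% and the median difference between -0.588 and -0.477. Between 7 and 9 genes had a mean difference below 0, of 8 to 10 genes with a region. No gene changed the sign of its mean difference under the alternatives in which it had a region; Kit ranged from 0.0229 to 0.153, Pdgfc from -0.585 to -0.181, Fgfr1 from -0.280 to -0.0881 and Pdgfrb from -0.499 to -0.0158. Of the other pathway genes, 63 to 88 had a region and 44 to 60 were mostly lower. No paired analysis was possible because each group has 1 library and no test was made. Fgfr2 rests on 2 regions of 5 cytosines each, and without read counts the precision of any level is unknown.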

Other observations

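The genes that restrain these receptors were divided in direction. Of 19 feedback inhibitor genes 15 (78.9%) had a region, against 65.4% of genes in the length range of the 10 receptor and ligand genes. Of the 15, 7 were mostly lower in PDGFRα+, 7 mostly higher and 1 even. Among their regions 24 of 41 (58.5%, Wilson interval 43.4 to 72.2) were lower, against 77.7% of all listed regions. This interval also treats regions as independent, although several belong to the same gene and some lie close together. Dusp6, a phosphatase gene that acts on ERK, was higher in 2 of 2 regions (means of 0.709 in PDGFRα+ and 0.209 in CD137+). Spry1 and Spry4, Sprouty genes induced by FGF signalling, were each higher in their only region (0.891 against 0.366 and 0.947 against 0.385), while Spry2 was lower in 2 of 3, a region of 1017 bases and 40 cytosines (0.198 against 0.890) among them. Cbl, a ubiquitin ligase gene whose product marks receptors for degradation, was higher in its only region (0.902 against 0.263). Nf1, the gene of the Ras inhibitor neurofibromin, was higher in 4 of 6 regions. Lrig3 and Il17rd were lower in 4 of 4 regions each, and Lrig1 in 4 of 5. Of 25 adaptor and kinase genes 17 (68.0%) had a region, 11 mostly lower, 4 mostly higher and 2 even, and 32 of 45 regions (71.1%) were lower. Both shares lay near the same backgrounds. Gab1 was lower in 8 of 9 regions and Frs2, the docking protein gene of FGF receptors, in 5 of 5. Gab2 was higher in 2 of 2 (means of 0.865 against 0.198).

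Among 36 other receptor tyrosine kinase genes 25 had a region, 17 mostly lower, 7 mostly higher and 1 even, with 73 of 95 regions (76.8%) lower. Both shares lay near the background, with 69.4% of the genes having a region against 65.4% of genes as long as the 10 receptor and ligand genes, and 77.7% of all listed regions lower. Ror1, a receptor of Wnt5a, was lower in 13 of 14 regions, the insulin-like growth factor receptor gene Igf1r in 8 of 9 and Ror2 in 6 of 9. These counts have no test, and the lists were written with earlier results of these data known.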
